A study of Homo sapiens with 16 samples.

Results

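Afatinib and paclitaxel given together were compared with the solvent DMSO in the cell line MDA-MB-231, which comes from a human breast cancer without hormone receptors or amplified HER2 (triple-negative), makes EGFR and has a mesenchymal shape. The comparison uses 8 of the 16 libraries of the series, 4 from cells that received both drugs and 4 from cells that received DMSO. The remaining 8 libraries, 4 with afatinib alone and 4 with paclitaxel alone, entered the same model and are used here to show where the combination differed from either drug. All groups share the same line, grown in medium with serum. The labels give no dose and no duration, and they do not say that replicates came from separate cultures, so p-values measure the spread between these libraries, which may be technical. The title of the series names a synthetic lethal interaction between the drugs as its question.

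Afatinib binds covalently to the kinase domains of EGFR, HER2 and HER4 and blocks signalling through the RAS-ERK and PI3K-AKT pathways. Active ERK raises immediate-early factors, cytokines and its own feedback phosphatases, while active AKT keeps FOXO factors out of the nucleus. Paclitaxel binds beta-tubulin, stabilizes microtubules and delays cells in mitosis. In the cell cycle, E2F factors released from retinoblastoma proteins drive the genes of DNA replication, and a later programme bound by MuvB, B-MYB and FOXM1 at promoters with a CHR element drives the genes of mitosis.

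Each of the 8 libraries held between 39667328 and 48108577 counts assigned to genes, and the common coefficient of variation between libraries was 7.41%. Labelled RNA concentration split the series into sets, with replicates 1 and 2 of each group higher than replicates 3 and 4, and a term for this set was in the model unless stated otherwise. Within each set the combination libraries also had the lower concentrations: 685.1, 561.5, 167.6 and 118 ng per µl, against 1050.5, 1290.9, 292.1 and 330 ng per µl for DMSO (two-sided exact permutation test within sets, p = 0.0556, the smallest these 8 libraries can give). Afatinib libraries were at 1134.9, 868.6, 180.6 and 188 ng per µl. Paclitaxel libraries split far less, at 345.6, 429.7, 300.5 and 204.2 ng per µl, so for them the set term is hardly a concentration term. The first principal component, 47.1% of the variance, separated the sets, and on the second (28%) the combination libraries lay between 19.5 and 32.4 and the DMSO libraries between −29.1 and −25. The part of RNA concentration in the results was not tested apart from a fit that adds it as a term, whose counts stand beside the results. The 8 markers of this mesenchymal line summed to 6320 to 8260 CPM (counts scaled to the size of each library) in the combination and 7190 to 8840 in DMSO. Blood cell markers summed to 1.4 to 2.19 CPM in the combination and 1.46 to 1.76 in DMSO, with CD3E at 0 in both groups, and the other foreign lists were fibroblast markers at 13.1 to 24.8 against 15.1 to 24.1 CPM and endothelial markers at 3.2 to 4.66 against 3.84 to 9 CPM. Markers of luminal breast cells summed to 686 to 773 CPM against 872 to 1120. The part of these marker levels in the results was not tested. These are bulk libraries, so a level change per cell and a change in the share of cells in a given state cannot be told apart, which holds for every cell cycle gene below.

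The combination changed the levels of many genes by small amounts. Genes of DNA replication and most of those of the start of S phase fell, genes of the mitotic spindle mostly rose, and cytokine genes and YAP targets mostly fell. Genes of the TGF-beta pathway, matrix genes and immediate-early factors were more often called lower than higher. Of 17991 genes tested, 6830 (38%) passed an adjusted p of 0.05 in edgeR's quasi-likelihood test, 3327 (18.5%) higher and 3503 (19.5%) lower with both drugs than with DMSO. Only 620 of them (3.45%) differed more than 2-fold, 424 (2.36%) higher and 196 (1.09%) lower. These 2-fold counts depend on the setting. They were 300 higher and 213 lower with log2 RNA concentration added, and 163 and 119 with at least 1 CPM in 4 libraries. With the authors' concentration-corrected values they were 181 and 242, so falls outnumbered rises there. The larger rises lay at low levels: among the 9718 genes with an average log2 CPM of at least 3, 45 were more than 2-fold higher and 62 more than 2-fold lower, while below 0 the numbers were 293 and 84. A gene near the floor can pass the filter on low counts through the group where it is high. The part of this in the low-level numbers was not tested. Calls in either direction were more frequent at higher levels. They numbered 2042 higher and 2665 lower among the 9718 genes, and 540 and 224 among the 4435 genes below 0. The counts of the gene lists below stand beside these numbers as well as the 38% of all genes. The median log2 fold change of all genes tested was 0.00. With 1.5-fold as the null, 471 genes passed, without the set term 2310, and with log2 RNA concentration added to the set term 4103.

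**Figure D1:**
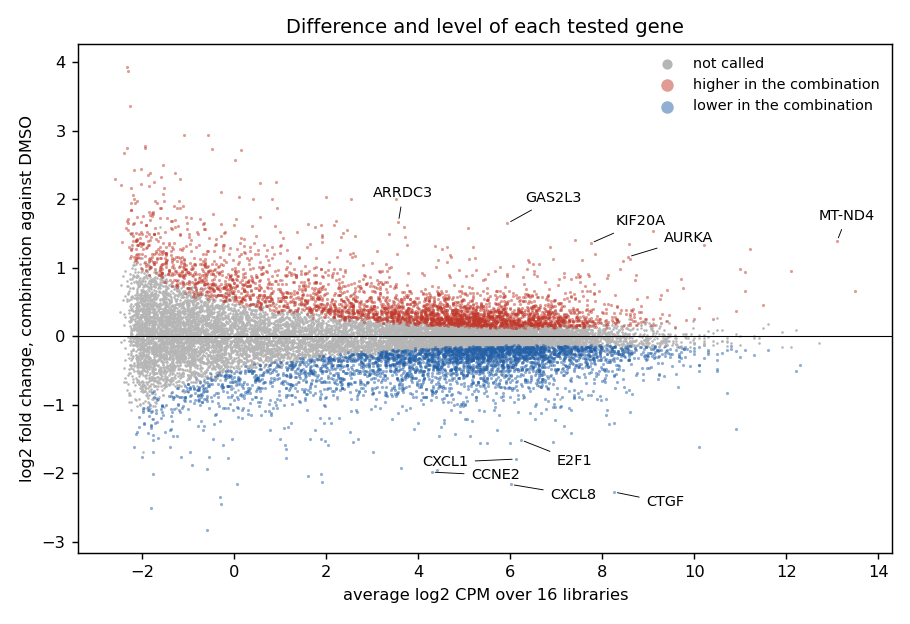
Log2 fold change of the combination over DMSO (vertical axis) for each of the 17991 genes tested, against its average log2 CPM over the libraries (horizontal axis), with called genes coloured by direction and some named genes labelled. Called genes lie on both sides of 0 at every level, and rises above 2-fold are most common at the left, where levels are low.

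The fold changes of the concentration sets followed each other. Across the 9718 genes with an average log2 CPM of at least 3, the fold changes of replicates 1 and 2 and of replicates 3 and 4 had a correlation of 0.86, given as a description since genes are not replicates. Of the 3575 genes called in replicates 1 and 2, 3423 (95.7%) had the same sign in replicates 3 and 4, where 1819 of them were called as well. A test of the difference between the sets called 0 genes in edgeR, with 1107 genes (6.15%) at an unadjusted p under 0.05, and 27 genes in DESeq2.

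**Figure D2:**
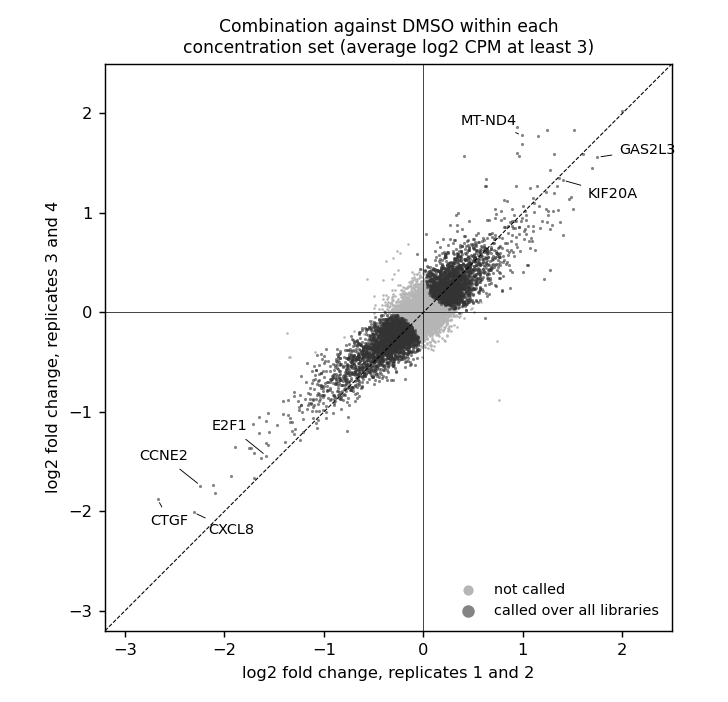
Log2 fold change of the combination over DMSO in replicates 1 and 2 (horizontal axis) and in replicates 3 and 4 (vertical axis), 1 point per gene with an average log2 CPM of at least 3. Most points follow the diagonal, and CTGF lies off it, at −2.67 and −1.88.

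Genes that start and carry out DNA replication were lower with both drugs. Of 42 tested members of a list of origin licensing, helicase, polymerase and clamp genes, 36 fell and none rose, with a median of −0.54 on the log2 scale (−0.63 in replicates 1 and 2, −0.48 in replicates 3 and 4) beside 0.00 over all genes. The count without the set term was 30, and 33 with RNA concentration added. E2F1 (ENSG00000101412, chromosome 20, 33675683 to 33686404, hg38) encodes the activator at the head of this programme. Its level was 114, 115, 95.4 and 98.7 CPM in DMSO replicates 1 to 4, and 39.8, 36.5, 34.5 and 37 CPM in the combination. All 4 treated libraries lay below all 4 controls, which held for 8.49% of the genes tested (and the opposite for 8.31%). The fall was 2.86-fold, from 106 ± 10.1 to 36.9 ± 2.19 CPM (SD, n = 4; log2 fold change −1.51 ± 0.06 SE, edgeR adjusted p = 1.32e-14), and amounted to −1.58 and −1.44 in the sets. The relative E2F2, another activator, fell by 1.49 on the log2 scale, and E2F8, a repressor that is itself an E2F target, by 0.85.

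CCNE2 (ENSG00000175305, chromosome 8, 94879770 to 94896678), which encodes cyclin E2 and activates CDK2 at S phase entry, fell more than the other genes of this group. It was steady in DMSO at 29.1, 29.4, 29.8 and 29.4 CPM, and reached 6.55, 5.86, 8.3 and 9.36 CPM with both drugs. The groups did not overlap, and the level was 3.96-fold lower (−1.98 ± 0.09, edgeR adjusted p = 7.42e-14). MCM6 (ENSG00000076003, chromosome 2, 135839626 to 135876426), a subunit of the replicative helicase, went from 124, 132, 130 and 119 CPM to 54.9, 47.3, 57 and 58.9 CPM, 2.32-fold lower (−1.21 ± 0.07, edgeR adjusted p = 6.83e-13). Its partner MCM5 fell by 1.22, the helicase cofactor CDC45 by 1.09, and the licensing factor CDC6 by 1.12 on the log2 scale. PCNA, the sliding clamp of DNA polymerases, was at 184, 180, 156 and 143 CPM in DMSO and at 81.7, 82.2, 78.1 and 80.5 CPM in the combination (−1.03 ± 0.06). The treated libraries were close to each other and far below the controls. UNG, a uracil DNA glycosylase that acts at replication forks, fell from 52.7, 55, 42.9 and 38.3 CPM to 19.8, 16.4, 16.2 and 16.5 CPM (−1.45 ± 0.08), and FAM111B, a protease gene, by 1.55.

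The list of E2F factors, pocket proteins and G1 cyclins was more mixed than the replication list. Of its 23 tested members 14 fell and 4 rose, with a median of −0.27. The members that rose were CCND2 (log2 fold change 1.21, at 0.183 ± 0.0413 CPM in DMSO and 0.427 ± 0.122 CPM in the combination, SD, n = 4), CCNA2 (0.56), the pocket protein gene RBL2 (0.41) and E2F5 (0.32), a repressor-class factor. They are named because they moved against their list, a choice made after their values were seen, as was the choice of every such exception below. CCNA2 encodes cyclin A2, which is present from S phase to mitosis. CCND2 did not pass in replicates 1 and 2 only (1.01, edgeR adjusted p = 0.198) or with the authors' concentration-corrected values (0.66, limma adjusted p = 0.14). Of 20 homologous recombination and Fanconi genes 13 fell and 2 rose (POLQ 0.58, FANCM 0.20), and their median was −0.25. The nuclease gene EXO1 fell by 0.74. FANCM no longer passed without combination replicate 2, combination replicate 4 or DMSO replicate 1 (0.18, 0.17 and 0.16). Among 5 cyclin kinase inhibitors, CDKN1A (p21) fell by 0.98, from 47.6, 54.1, 41.5 and 37.7 CPM to 22.8, 23.3, 22 and 22.8 CPM with no overlap. CDKN3, a phosphatase gene of the mitotic programme, rose by 0.69, and CDKN1B (p27) and CDKN2C (p18) by 0.27 and 0.26. CDKN1B and, in the list before, E2F5 no longer passed with RNA concentration added (adjusted p = 0.0545 and 0.0679, edgeR).

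The starts of E2F1 and MCM6 are shown because they carry E2F-type letters beside the falls just given. The sequences are RefSeq promoters of GRCh38.p14, the 250 bases before the annotated start, 5′ to 3′ on the minus strand of the genome, at chr20:33686386-33686635 and chr2:135876444-135876693. Capitals mark matches on either strand to TTTCCCGC, TTTCGCGC, TTTGCCGC or TTTGGCGC, and in MCM6 each run of capitals holds 2 overlapping matches on opposite strands.
E2F1: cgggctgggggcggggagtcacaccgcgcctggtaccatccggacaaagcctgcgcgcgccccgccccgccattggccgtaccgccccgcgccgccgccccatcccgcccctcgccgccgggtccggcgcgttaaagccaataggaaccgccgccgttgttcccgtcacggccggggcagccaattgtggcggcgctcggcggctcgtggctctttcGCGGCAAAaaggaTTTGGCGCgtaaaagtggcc
MCM6: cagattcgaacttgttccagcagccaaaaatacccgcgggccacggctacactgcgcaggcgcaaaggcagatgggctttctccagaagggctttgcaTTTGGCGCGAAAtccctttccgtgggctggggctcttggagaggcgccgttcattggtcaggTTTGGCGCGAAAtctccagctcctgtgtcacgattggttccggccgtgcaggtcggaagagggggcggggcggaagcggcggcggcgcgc

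At least 1 of these motifs stood in 20 of 45 promoter windows of the replication genes (44.4%, from 35 genes in the table), in 6 of 24 windows of the E2F and G1 list (25%, 17 genes), and in 3.31% of all 35116 windows, each 250 bases before to 50 bases after a start. A match is a description of letters and not a site of binding. MCM6 and PCNA held a match and CDC45 did not, and all of these fell.

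Genes of the mitotic spindle, kinetochore and cytokinesis rose. Of 38 tested members 32 were higher and 3 lower, with a median of 0.65 (0.70 and 0.63 in the sets), and 30 were higher and 4 lower with RNA concentration added. KIF20A (ENSG00000112984, chromosome 5, 138178719 to 138187715) encodes a kinesin of the cytokinetic midzone. It was at 121, 135, 138 and 135 CPM in DMSO and at 321, 351, 358 and 328 CPM with both drugs. No treated library came near the controls, and the level was 2.57-fold higher (1.36 ± 0.07, edgeR adjusted p = 4.24e-13). KIF18A (chromosome 11, 28020620 to 28108308), the kinesin that limits the length of kinetochore microtubules, rose 2.47-fold, from 74.8, 69.7, 75.1 and 76.8 CPM to 184, 182, 190 and 175 CPM (1.30 ± 0.06). The outer kinetochore motor CENPE rose by 1.21, SGOL2, a protector of centromeric cohesion also called SGO2, by 1.11, and TACC3, which crosslinks spindle microtubules, by 0.90. GAS2L3 (ENSG00000139354, chromosome 12, 100573683 to 100628286), which links microtubules and actin at the midbody, had one of the largest rises of a well expressed gene. It went from 31.8, 28.6, 37.2 and 37.4 CPM to 97.2, 105, 115 and 105 CPM, 3.14-fold higher (1.65 ± 0.08, edgeR adjusted p = 5.73e-13). The members that fell were SPC25 (−0.69) and SPC24 (−0.45) of the NDC80 complex and NUSAP1 (−0.28), a spindle assembly gene. SPC25 did not pass in replicates 1 and 2 only or in replicates 3 and 4 only (edgeR adjusted p = 0.0675 and 0.0601). Nor did it pass with the authors' concentration-corrected values (−0.4, limma adjusted p = 0.0967).

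Mitotic kinases, cyclins and checkpoint genes split. Of 25 tested members 14 rose and 8 fell, with a median of 0.31 (0.29 in either set). AURKA (chromosome 20, 56369389 to 56392337), the centrosome kinase, was at 255 ± 27 CPM in DMSO (SD, n = 4) and at 658, 708, 506 and 431 CPM in the combination. The groups did not overlap, and the fold was 2.23 (1.16 ± 0.07, edgeR adjusted p = 1.16e-11). CCNB1, cyclin B1, rose from 238, 245, 229 and 253 CPM to 495, 542, 534 and 498 CPM (1.10 ± 0.06), with little spread among the treated libraries. The kinase gene PLK1 rose by 0.85 and CDC20, the activator of the anaphase-promoting complex, by 0.83. Among the members that fell were CDK1 (−0.59), the kinase that cyclin B1 activates, from 222 ± 9.89 to 148 ± 20.9 CPM (SD, n = 4), its inhibitory kinase PKMYT1 (−0.96), and FBXO5 (−0.88), an inhibitor of the anaphase-promoting complex in S and G2 phase.

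The promoter of KIF18A is shown with the CHR-type letters TTTGAA in capitals. It lies at chr11:28108157-28108406 on the minus strand of GRCh38.p14 (RefSeq), 250 bases before the start, 5′ to 3′.
KIF18A: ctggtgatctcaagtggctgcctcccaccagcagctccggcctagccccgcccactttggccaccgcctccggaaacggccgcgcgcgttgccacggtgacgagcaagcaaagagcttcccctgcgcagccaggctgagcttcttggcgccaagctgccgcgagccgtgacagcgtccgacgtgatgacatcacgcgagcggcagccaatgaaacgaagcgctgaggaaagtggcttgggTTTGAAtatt

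TTTGAA on either strand stood in 26 of 38 promoter windows of the spindle genes (68.4%, 35 genes), in 13 of 29 windows of the mitotic kinase genes (44.8%, 18 genes) and in 15.2% of all windows. KIF20A, CENPE and CCNB1, which rose, held no match in this window, and NUSAP1, SPC25 and CDK1, which fell, held one.

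**Figure D3:**
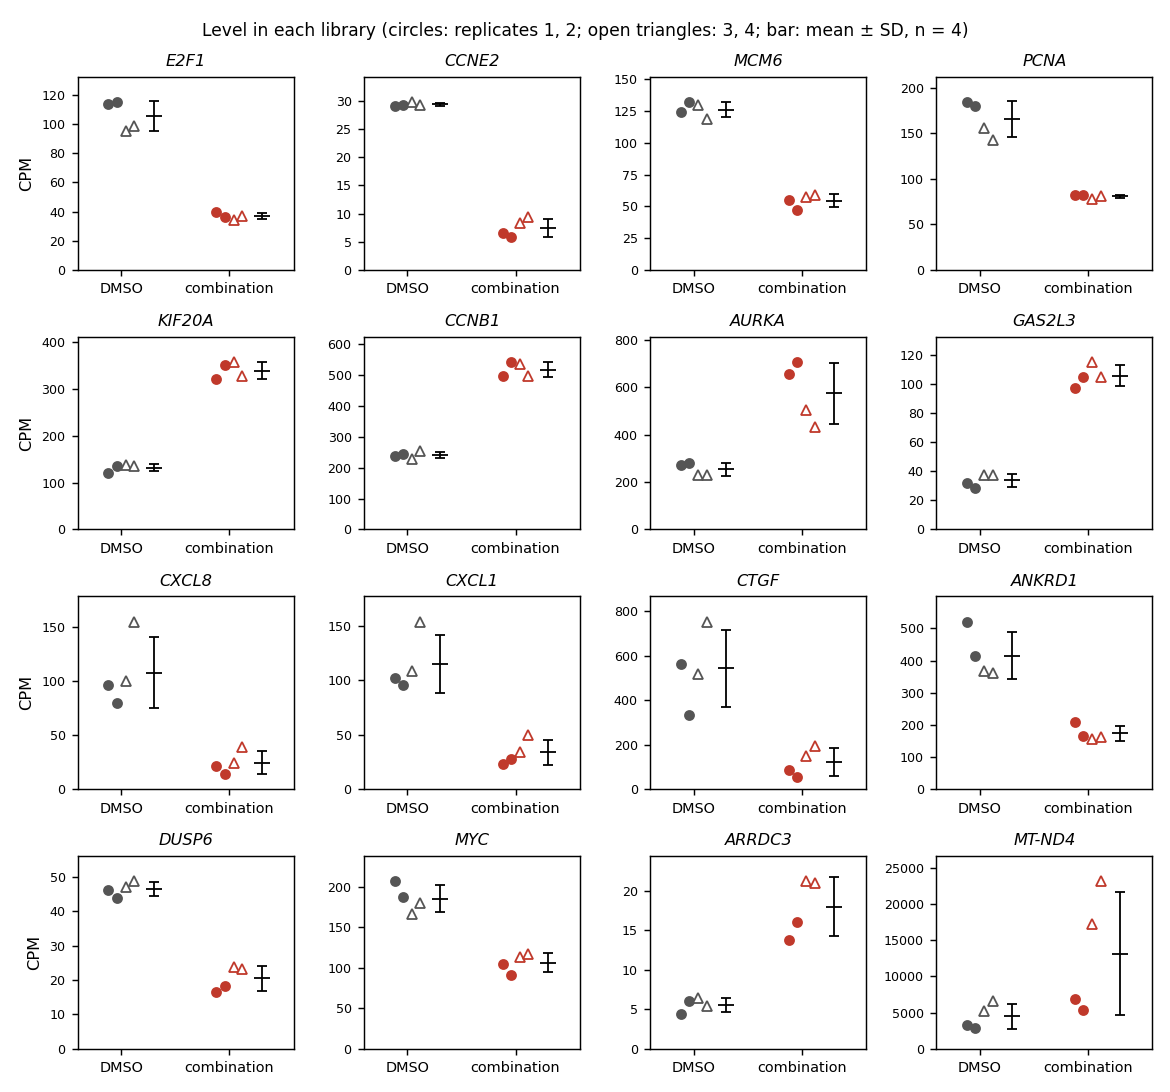
CPM of 16 named genes in each library (vertical axes from 0) in DMSO and in the combination. Circles are replicates 1 and 2, open triangles replicates 3 and 4, and the bar beside them is the mean ± SD (n = 4). E2F1 in the combination lies between 34.5 and 39.8 CPM, below the DMSO range of 95.4 to 115, and KIF20A lies between 321 and 358 CPM, above the DMSO range of 121 to 138.

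Cytokine and chemokine genes were lower. Of 16 tested members 12 fell and 1 rose, with a median of −1.0 (−1.08 and −0.84 in the sets), and 11 fell with RNA concentration added. CXCL8 (ENSG00000169429, chromosome 4, 73740506 to 73743716), the neutrophil chemokine interleukin-8, was at 96, 79.6, 100 and 155 CPM in DMSO and at 21, 14.3, 24.1 and 38.8 CPM in the combination. The highest treated library was below the lowest control, and the level was 4.45-fold lower (−2.16 ± 0.29, edgeR adjusted p = 0.000103). CXCL1 (chromosome 4, 73869393 to 73871242), its neighbour and relative, fell from 102, 95.3, 109 and 154 CPM to 23.4, 28, 33.8 and 50.1 CPM (−1.79 ± 0.14, edgeR adjusted p = 1.14e-07). Replicate 4 was the highest library of either group for both chemokines. The genes of interleukin-1, IL1A and IL1B, fell by 1.68 and 2.03 on the log2 scale, CSF2 (GM-CSF) by 1.95 and IL11, a cytokine of the interleukin-6 family, by 0.98. IL32 was the member that rose, by 0.24. This rise did not pass without the set term, in replicates 1 and 2 only or in replicates 3 and 4 only (edgeR adjusted p = 0.571, 0.0877 and 0.0616). EDN1, the vasoconstrictor endothelin-1, fell by 1.92 with no overlap, from 14.6 to 28.3 CPM in DMSO to 3.25 to 8.34 CPM.

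Genes of the NF-kB pathway did not move one way. Of 17 tested members 4 rose and 5 fell, with a median of 0.01. NFKBIA, the inhibitor that NF-kB itself induces, fell by 0.68, from 138, 151, 120 and 130 CPM to 76.5, 80.5, 85.9 and 94.2 CPM. BIRC3 (an inhibitor of apoptosis), TRAF1 (an adaptor) and RELB (a subunit) rose by 0.57, 0.59 and 0.35.

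The CXCL8 and CXCL1 promoters are shown because both hold the same kappaB-type letters, GGAATTTCC, in capitals. They are the 250 bases before the RefSeq start on the plus strand of GRCh38.p14, chr4:73740319-73740568 and chr4:73869143-73869392.
CXCL8: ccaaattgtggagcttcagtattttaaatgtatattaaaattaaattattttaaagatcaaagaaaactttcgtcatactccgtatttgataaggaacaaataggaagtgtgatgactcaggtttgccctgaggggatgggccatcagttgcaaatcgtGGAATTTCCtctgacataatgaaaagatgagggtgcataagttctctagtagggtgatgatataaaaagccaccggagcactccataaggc
CXCL1: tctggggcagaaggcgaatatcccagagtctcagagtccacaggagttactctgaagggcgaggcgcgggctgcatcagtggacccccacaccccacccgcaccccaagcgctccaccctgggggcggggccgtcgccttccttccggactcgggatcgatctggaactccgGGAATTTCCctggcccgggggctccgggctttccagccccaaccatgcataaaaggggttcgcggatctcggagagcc

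GGAATTTCC on either strand stood in 6 of 15 promoter windows of the cytokine genes (40%, 13 genes) and in 0.461% of all windows. CSF2, IL1A, IL1B and IL11 fell without a match to these letters in this window.

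Targets of YAP and TEAD, which respond to cell tension and growth factors, were mostly lower. Of 17 tested members 11 fell and 1 rose (LATS2, a kinase that inhibits YAP, at 0.17), with a median of −0.55 (−0.57 and −0.45 in the sets). LATS2 no longer passed without combination replicate 3 or without DMSO replicate 2 (0.15 each), and with RNA concentration added 11 members fell and none rose. CTGF, also called CCN2 (ENSG00000118523, chromosome 6, 131948176 to 131951373), a secreted matrix regulator, fell from 564, 335, 518 and 753 CPM to 84.9, 56.5, 148 and 196 CPM. The libraries spread widely within each group but did not overlap, and the fall was 4.83-fold (−2.27 ± 0.26, edgeR adjusted p = 2.57e-05), larger in replicates 1 and 2 (−2.67) than in replicates 3 and 4 (−1.88). Its relative CCN1 (CYR61 in the table) fell by 1.35, from 2650 ± 769 to 1100 ± 517 CPM (SD, n = 4). ANKRD1, a cardiac ankyrin repeat protein gene often used as a YAP readout, went from 521, 414, 367 and 360 CPM to 209, 165, 157 and 162 CPM (−1.26 ± 0.09). F3 (tissue factor) fell by 1.07, TGFB2 (a TGF-beta ligand) by 0.82 and AJUBA (a LIM protein of adherens junctions) by 0.55. Of 18 contractile and actin genes 11 fell and none rose, among them ACTG1 (−0.51) and ACTB (−0.41), with a median of −0.20. Actin genes have many near-identical pseudogenes, so their counts are uncertain.

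The promoter of CTGF is shown for its TEAD-type letters, GGAATG, in capitals. It is the RefSeq CCN2 promoter at chr6:131951373-131951622, minus strand, GRCh38.p14.
CCN2: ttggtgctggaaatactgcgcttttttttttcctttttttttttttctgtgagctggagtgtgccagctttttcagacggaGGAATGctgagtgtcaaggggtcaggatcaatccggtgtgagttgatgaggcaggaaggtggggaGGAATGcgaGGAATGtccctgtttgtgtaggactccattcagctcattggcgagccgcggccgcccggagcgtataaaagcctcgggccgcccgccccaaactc

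GGAATG on either strand stood in 8 of 16 promoter windows of the YAP and TEAD targets (50%, 13 genes) and in 14% of all windows. ANKRD1, AJUBA and TGFB2 held a match, and so did LATS2, which rose, while F3 fell without one.

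Genes of the TGF-beta pathway and of the extracellular matrix were also more often lower. Of 19 members of the TGF-beta list 12 fell and 2 rose, with a median of −0.21. INHBA, the activin A subunit, was at 145, 137, 204 and 252 CPM in DMSO and at 44.9, 40.3, 74.6 and 102 CPM in the combination (−1.54 ± 0.11). The groups did not overlap. Outside this list, PMEPA1 (a feedback inhibitor of TGF-beta signalling) fell by 1.55, NOG (noggin, a BMP antagonist) by 1.56 and THBS1 (thrombospondin-1) by 1.61. ID2 and ID3, inhibitors of helix-loop-helix factors, were the members of the TGF-beta list that rose. ID2 went from 0.778, 0.469, 0.454 and 0.566 CPM to 2.11, 1.97, 1.7 and 1.79 CPM (1.74 ± 0.19), and ID3 rose by 0.45. Of 25 matrix and mesenchymal genes 15 fell and none rose (median −0.32), though only 1 of them was called without the set term and 13 with RNA concentration added. COL4A1, a basement membrane collagen, fell by 0.76 and the cadherin gene CDH11 by 0.66. Among 18 proteases and their inhibitors 7 fell and 3 rose: PLAU (urokinase) fell by 0.91 and ADAMTS6 by 1.20, while MMP3 and MMP13 (stromelysin-1 and collagenase-3) rose by 1.17 and 1.12 at low levels. MMP13 did not pass with RNA concentration added (0.83, edgeR adjusted p = 0.151), in replicates 1 and 2 only or with the authors' concentration-corrected values (0.43). The third riser was MMP1 (0.44), which did not pass without combination replicate 4, DMSO replicate 1 or DMSO replicate 3 (0.20, 0.40 and 0.35). Of 13 keratin and epithelial genes 6 fell and 1 rose, and KRT7 went from 303, 333, 294 and 311 CPM to 167, 164, 160 and 168 CPM (−0.91 ± 0.05).

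Secreted growth factors were lower in 10 of 15 cases and higher in 3, with a median of −0.57. PDGFB, a ligand of PDGF receptors, fell from 3.87, 5.94, 7.76 and 7.96 CPM to 1.31, 0.867, 2.07 and 1.63 CPM (−2.13 ± 0.15, edgeR adjusted p = 3.85e-11). The controls were at least as high as 3.87 CPM and no treated library was above 2.07 CPM. BDNF, a neurotrophin, fell by 0.88, and VEGFA, an angiogenic factor that is also in the glycolysis and hypoxia list, by 0.72.

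Of the receptors that afatinib binds, neither EGFR nor ERBB2 had a called change in level in the count model. EGFR was at 570, 429, 850 and 1050 CPM in DMSO and at 443, 420, 816 and 1020 CPM in the combination (−0.13 ± 0.09, edgeR adjusted p = 0.275). The sets differed by more than the groups did. It passed as lower without combination replicate 4 (−0.22, edgeR adjusted p = 0.0313) and with the authors' concentration-corrected values (−0.44, limma adjusted p = 0.00586). ERBB2 (HER2) was at 53.9, 60, 80.8 and 102 CPM and at 58.2, 58.3, 80.9 and 97.1 CPM (0.00 ± 0.07, edgeR adjusted p = 0.974), with a sign that turned between settings near 0 and a called fall with the authors' concentration-corrected values (−0.25, limma adjusted p = 0.0443). ERBB3, a receptor with a weak kinase that pairs with HER2, rose by 0.91 ± 0.18 from a low level, 0.503, 0.781, 1.53 and 1.65 CPM against 1.52, 1.68, 2.36 and 2.46 CPM. This rise did not pass with the authors' concentration-corrected values (0.5, limma adjusted p = 0.0588). Nor did it pass in replicates 3 and 4 only (0.61, edgeR adjusted p = 0.0642) or without the set term (0.85, edgeR adjusted p = 0.191). Of 10 receptors and their inhibitors and adaptors 1 rose and 4 fell. The 8 EGFR family ligands split, with 3 higher and 3 lower: HBEGF fell by 0.94 and TGFA by 0.36, while BTC (betacellulin) rose by 0.81 from 1.13 to 1.32 CPM to 1.59 to 2.46 CPM.

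Genes downstream of ERK were more often called lower than higher, and many were not called. Of 16 feedback genes and ETS factors 9 fell and 1 rose (SPRED2, 0.32), with a median of −0.32. DUSP6, the phosphatase that acts on ERK, went from 46.2, 43.9, 47.1 and 48.7 CPM to 16.5, 18.4, 23.8 and 23.1 CPM (−1.20 ± 0.08, edgeR adjusted p = 8.95e-12). All treated libraries were far below the controls. PHLDA1 fell by 0.76. Of 14 immediate-early factors 7 fell and none rose, with a median of −0.69, which was −0.78 in replicates 1 and 2 and −0.22 in replicates 3 and 4. With RNA concentration added 6 fell and 1 rose (median −0.44). MYC fell from 207, 187, 167 and 180 CPM to 105, 90.6, 113 and 117 CPM (−0.80 ± 0.09), with no overlap. KLF6 and JUNB fell by 0.80 and 0.83.

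FOXO targets and genes of insulin signalling moved in both directions. Of 22 tested members 12 rose and 6 fell, with a median of 0.24, and 8 rose and 5 fell with RNA concentration added. ARRDC3, an arrestin that promotes receptor degradation, was at 4.39, 6.11, 6.37 and 5.45 CPM in DMSO and at 13.8, 16, 21.2 and 21 CPM with both drugs, 3.19-fold higher (1.67 ± 0.15, edgeR adjusted p = 4.12e-08). Its relative ARRDC4 rose by 1.03, SESN3 (a sestrin that restrains mTORC1) by 1.31 and PIK3IP1 (an inhibitor of PI3K) by 1.02. INSR, the insulin receptor, fell instead, from 15.8, 15.4, 26.9 and 32 CPM to 6.29, 6.37, 11.4 and 13.7 CPM (−1.26 ± 0.10). Its adaptor gene IRS1 fell by 0.64 and FBXO32, the ubiquitin ligase atrogin-1, by 0.91. INSR and FBXO32 are known FOXO targets that did not share the direction of ARRDC3.

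**Figure D4:**
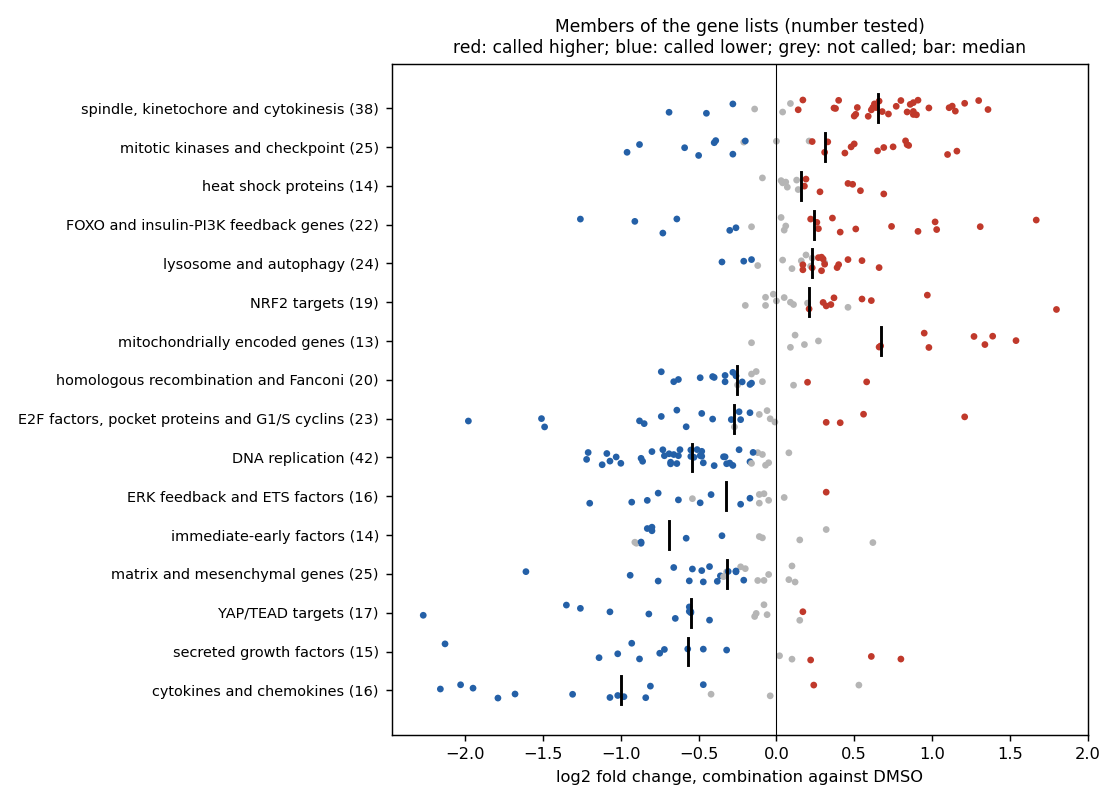
Log2 fold change of the combination over DMSO (horizontal axis) for each tested member of 16 gene lists, 1 dot per gene, red where called higher, blue where called lower and grey where not called, with a black bar at the median of the list. The medians run from −1.0 for cytokines to 0.65 for spindle genes and 0.67 for mitochondrially encoded genes.

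Genes of apoptosis were more often lower than higher. Of 19 BCL2 family genes 10 fell and 2 rose, with a median of −0.20. MCL1, an anti-apoptotic member that is short-lived, went from 443, 432, 464 and 460 CPM to 271 ± 42.5 CPM (SD, n = 4, at most 311; −0.74 ± 0.07), with no overlap. BCL2L1 (BCL-XL) fell by 0.48. BBC3 (PUMA), a pro-apoptotic member and p53 target, also fell, by 0.84. Of 24 p53 targets 9 fell and 3 rose, with a median of −0.12; this line carries mutant p53. Among 20 death receptor genes 5 rose and 7 fell, and FAS rose by 0.64.

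Tubulins, which carry the binding site of paclitaxel, and genes of microtubule-binding proteins had no common direction. Of 14 tubulins 3 rose and 5 fell. TUBA1C fell by 0.62 and TUBB2A rose by 0.34. TUBB fell by 0.95, from 33, 37, 32.7 and 30.5 CPM to 16.4, 16.8, 18.3 and 17.2 CPM, but its symbol stands for 5 identifiers in the table, so the value is uncertain. Of 26 microtubule-binding proteins 9 rose and 7 fell: DPYSL2 (CRMP2) fell by 1.22 and MAP1A rose by 1.17. Of 8 drug efflux transporters 3 rose and none fell, a share called that is near the 38% of all genes: ABCC9, a subunit of potassium channels in the same transporter family, by 1.21 and ABCG2 by 0.34. The rise of ABCG2 did not pass without the set term or in either set alone. With the authors' concentration-corrected values it was 0.11 (limma adjusted p = 0.59).

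Lists of amino acid and stress genes did not share a direction, and the ATF4 list held changes both ways. Targets of ATF4, the factor of the integrated stress response, fell in 8 of 16 cases and rose in 1, DDIT3 (CHOP), which went from 11.3, 9.48, 7.69 and 7.69 CPM to 24.1, 17.8, 13.1 and 14 CPM (0.92 ± 0.11). CHAC1, a glutathione-degrading enzyme and CHOP target, fell instead, from 12.3, 13.4, 12.1 and 11 CPM to 5.25, 6.49, 5.42 and 6.2 CPM (−1.06 ± 0.11). Of 12 genes of serine, glycine and asparagine synthesis 8 fell and none rose, with PSAT1 at −1.08 and MTHFD2 at −1.01, and tRNA synthetases fell in 10 of 19 cases with a median of −0.14. Heat shock genes rose in 7 of 14 cases and fell in none: HSPH1 by 0.54, HSP90AA1 by 0.46 and the co-chaperone BAG3 by 0.49. Targets of NRF2 rose in 9 of 19 cases and fell in none, with OSGIN1 at 0.97, AKR1B10 at 1.80 (0.118 ± 0.0669 CPM in DMSO, 0.409 ± 0.157 CPM in the combination, SD, n = 4) and the autophagy receptor SQSTM1 at 0.55. Lysosome genes rose in 13 of 24 cases and fell in 3. With RNA concentration added 6 lysosome genes rose and 1 fell (median 0.14 in place of 0.23), and with the authors' concentration-corrected values 4 rose and 3 fell (median 0.00).

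Of 34 interferon-stimulated genes 14 fell and 6 rose, and their median was −0.09. TRIM25, a ubiquitin ligase that activates RIG-I, was at 213, 203, 207 and 202 CPM in DMSO and at 78.1, 71, 92.7 and 94 CPM in the combination (−1.30 ± 0.08, edgeR adjusted p = 3.32e-12). DDX58, which encodes RIG-I itself, fell by 0.60. CD274 (PD-L1) fell by 0.94, from 34.3, 33.5, 51.9 and 60.4 CPM to 15.4, 15.3, 29.5 and 36.4 CPM, overlapping across the sets but not within either set. Within both sets the treated libraries lay apart below the controls for 19.7% of the genes tested, and above them for 18%. Of 25 histone genes 7 rose and 7 fell, HIST1H2BD by 1.51 upwards and the linker histone gene H1F0 by 1.11 downwards. Cholesterol synthesis genes rose in 8 of 20 cases and fell in 3, including HMGCS1 (0.42), while ACLY, which feeds fatty acid synthesis, fell by 0.46. Of 16 long non-coding RNAs 8 fell and 3 rose, with LINC00657 (NORAD) at −0.58 and MALAT1 at 0.84. MALAT1 no longer passed with RNA concentration added (adjusted p = 0.0707, edgeR). Called shares were below the 38% of all genes for ribosomal protein genes (20.7%), nuclear genes of the respiratory chain (31%), chaperones of the endoplasmic reticulum (33.3%) and antigen presentation genes (28.6%). Shares called in either direction were 47.4% for NRF2 targets and 48% for glycolysis and hypoxia genes. They were 50% for heat shock genes, p53 targets, immediate-early factors and EGFR family receptors. These are near the share at an average log2 CPM of at least 3 (2042 higher and 2665 lower of 9718 genes). Of 29 ribosomal protein genes 6 fell and none rose, of 29 nuclear genes of the respiratory chain 8 fell and 1 rose, and of 25 glycolysis and hypoxia genes 8 fell and 4 rose. Of 18 chaperones of the endoplasmic reticulum 6 fell and none rose, of 13 fatty acid synthesis genes 5 fell and 2 rose, of 12 amino acid transporters 6 fell and 1 rose, and of 14 antigen presentation genes 2 rose and 2 fell.

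Genes expressed at low or moderate levels gave the largest rises. Such genes can be near the floor in DMSO and pass the filter through the group where they are high, so their folds are uncertain. PYGM, muscle glycogen phosphorylase, went from 0.343, 0.112, 0.281 and 0.27 CPM to 1.35, 1.04, 2.41 and 2.02 CPM (2.72 ± 0.26, edgeR adjusted p = 8.47e-09), and GPNMB, a glycoprotein of lysosomes and melanosomes, from 0.572, 0.625, 0.756 and 0.836 CPM to 2.94, 2.74, 3.54 and 4.14 CPM (2.26 ± 0.16). Neither gene overlapped between the groups. Better expressed genes that rose with no overlap were GEM, a small GTPase, from 16.7 to 20 CPM in DMSO to 42.8 to 64.5 CPM (1.58 ± 0.07), the secreted chaperone CLU (1.45) and NAV2, a neuron navigator protein (1.35).

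Transcripts encoded by mitochondrial DNA were higher, by amounts that differed between the sets. Of 13 protein-coding members 8 rose and none fell, with a median of 0.67, which was 0.32 in replicates 1 and 2 and 0.99 in replicates 3 and 4. MT-ND4 was at 3250, 2890, 5200 and 6530 CPM in DMSO and at 6820, 5390, 17200 and 23100 CPM in the combination (1.39 ± 0.21), MT-ND6 rose by 1.54 and MT-CO2 by 0.95. Mitochondrially encoded genes took 2.26, 2.11, 3.81 and 4.46% of the counts in DMSO and 3.22, 2.67, 7.29 and 9.21% in the combination. The means were 3.16 ± 1.16% and 5.6 ± 3.17% (SD, n = 4), and the treated library was higher within each set (two-sided exact permutation test within sets, p = 0.0556, the smallest possible). With RNA concentration added to the model 3 members rose, without the set term none did, and with the authors' concentration-corrected values 1 fell and none rose. MT-ND6 did not pass with RNA concentration added (adjusted p = 0.103, edgeR), and leaving mitochondrial genes out before scaling gave 6800 called genes in place of 6830. The mitochondrial tRNA gene MT-TN, which like MT-ND6 is read from the strand opposite most mitochondrial genes, so that its reads are uncertain without strand, rose by 2.0, from 3.25, 3.28, 7.09 and 7.01 CPM to 11.6, 14.5, 28.4 and 28.9 CPM.

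The combination differed from each drug alone at many genes. Against afatinib 4935 genes (27.4%) were called, 2359 higher and 2576 lower, and against paclitaxel 4347 (24.2%), 2268 higher and 2079 lower. Replication genes were lower than with afatinib in 35 of 42 cases and lower than with paclitaxel in 23, with 1 higher. Spindle genes were higher than with afatinib in 32 of 38 cases (4 lower) and higher than with paclitaxel in 36. The comparisons of each treatment with DMSO share the DMSO libraries, so their values are only set side by side: afatinib against DMSO called 3432 genes (19.1%) and paclitaxel 3694 (20.5%). For replication genes the medians were −0.08 with afatinib, −0.39 with paclitaxel and −0.54 with both, and for spindle genes 0.08, 0.24 and 0.65. For cytokines they were −0.98, −0.15 and −1.0.

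**Figure D5:**
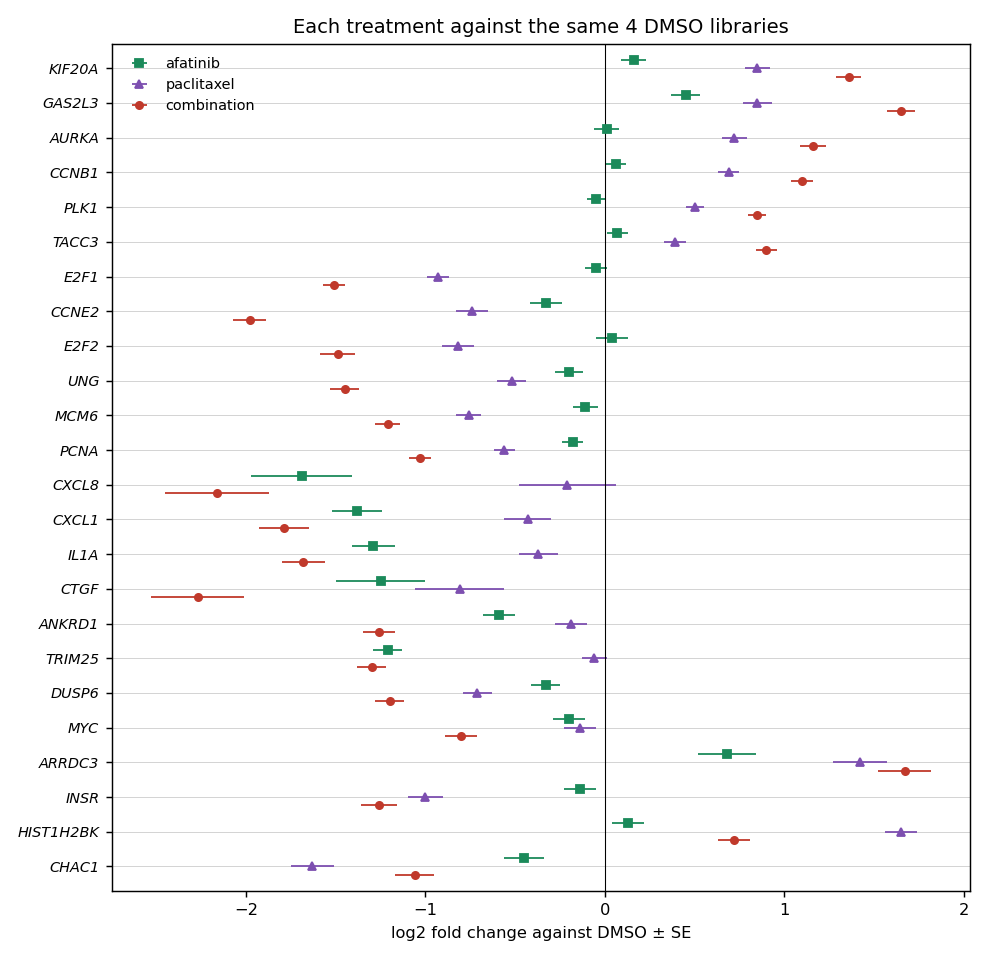
Log2 fold change over the same DMSO libraries with afatinib, with paclitaxel and with both drugs for named genes, with bars of 1 SE. E2F1 reads −0.05, −0.93 and −1.51, KIF20A 0.16, 0.85 and 1.36, and CXCL8 −1.69, −0.21 and −2.16.

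Single genes followed different patterns. E2F1 differed from afatinib by −1.47 (edgeR adjusted p = 2.86e-14) and from paclitaxel by −0.59 (edgeR adjusted p = 3.86e-07). CXCL8 differed from paclitaxel by −1.94 (edgeR adjusted p = 0.000514), while its difference from afatinib, −0.46, did not pass (edgeR adjusted p = 0.277). TRIM25, IL11 and ADAMTS6 likewise had differences from afatinib of −0.09, 0.16 and −0.04 that did not pass, and differences from paclitaxel of −1.24, −1.05 and −1.29 that did. CTGF was lower than with either drug, by 1.02 against afatinib (edgeR adjusted p = 0.01) and by 1.47 against paclitaxel (edgeR adjusted p = 0.00134). ARRDC3 and PYGM were higher than with afatinib, by 0.99 and 2.29, and their differences from paclitaxel, 0.25 and −0.33, did not pass.

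Whether the combination departed from the sum of both single-drug changes was tested directly, as the log2 change with both drugs minus the log2 changes with each. The departure passed for 159 genes (0.884%), 70 above the sum (0.389%) and 89 below it (0.495%). This count depends on the setting: it was 501 with the replicate number as a block, which treats same-numbered libraries as matched, and 367 in DESeq2. It was 0 without the set term, where 643 genes had an unadjusted p under 0.05 in edgeR. Leaving out 1 library moved it by over 1.5 times for 11 of the 16 libraries. It rose to 279 without paclitaxel replicate 2, and fell to 34 without paclitaxel replicate 4, 47 without paclitaxel replicate 1, 45 and 52 without combination replicates 3 and 2, 98 and 64 without DMSO replicates 1 and 4, and 76, 65, 47 and 84 without afatinib replicates 1 to 4. Of 23 E2F factors, pocket proteins and G1 cyclins, 3 departed downwards and none upwards, with a median departure of −0.05 and 11 of 23 above 0. CCNE2 departed by −0.91 ± 0.13 (edgeR adjusted p = 0.000994), with single-drug changes of −0.33 and −0.74 beside −1.98 with both. E2F1 departed by −0.54 ± 0.09 (edgeR adjusted p = 0.00274), E2F2 by −0.71 and UNG by −0.73, and all of these passed in each of the 16 fits that leave out 1 library. FAM111B departed by −0.43 but lost the call in 9 of those fits (without afatinib replicates 1 to 3, combination replicates 1 to 3, DMSO replicates 1 or 4, or paclitaxel replicate 4), with adjusted p up to 0.0879 in edgeR. Of the 42 replication genes 1 departed downwards and none upwards, with a median of −0.07.

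Of 38 spindle genes 16 departed upwards and none downwards, and of 25 mitotic kinase and checkpoint genes 9 and none. The departures of all 38 spindle genes were above 0, with a median of 0.37, and those of 22 of the 25 kinase and checkpoint genes, with a median of 0.32, as values that share their libraries and are not independent. With the replicate block the counts were 24 and 12, with RNA concentration added 17 and 6, without the set term both were 0, and leaving out 1 library gave 3 to 25 (lowest without paclitaxel replicate 4, highest without paclitaxel replicate 2) and 2 (without afatinib replicate 3, combination replicates 2 or 3, or paclitaxel replicates 1 or 4) to 12 (without paclitaxel replicate 2). PLK1 (0.41 ± 0.08, edgeR adjusted p = 0.00787) and TACC3 (0.44 ± 0.08, edgeR adjusted p = 0.00614) passed without any 1 of the 16 libraries. CCNB1 (0.35), AURKA (0.43), CDC20 (0.33) and KIF18A (0.37) each lost the call in 12 of the 16 fits and SGOL2 (0.41) in 13. All of these failed without afatinib replicates 1, 2 or 3, combination replicates 2 or 3, DMSO replicate 4, or paclitaxel replicates 1 or 4. KIF20A, at 0.34, did not pass (edgeR adjusted p = 0.106).

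Some amino acid genes also departed. CHAC1 was at −0.45 with afatinib, −1.63 with paclitaxel and −1.06 with both, a departure of 1.02 ± 0.17 (edgeR adjusted p = 0.00274). ASNS, asparagine synthetase, was at −0.54, −0.57 and −0.21 (departure 0.91, edgeR adjusted p = 0.0183, but 0.0504 without afatinib replicate 3), and SLC1A4, a neutral amino acid carrier, at −0.39, −0.93 and −0.41 (departure 0.90). Departures upwards numbered 3 of 12 genes of serine, glycine and asparagine synthesis, 2 of 12 amino acid transporters and 4 of 19 tRNA synthetases, with none downwards. With RNA concentration added the counts were 1, 2 and 1, and without the set term all were 0. Leaving out 1 library gave 0 (without afatinib replicate 3) to 4 for the first list, 1 (without paclitaxel replicate 4) to 4 for the transporters and 0 to 4 for the synthetases, with 0 without afatinib replicates 2, 3 or 4, combination replicate 3, DMSO replicate 1, or paclitaxel replicates 1 or 4. Of 25 histone genes 5 departed downwards and none upwards (4 to 6 leaving out 1 library, 0 without the set term). HIST1H2BK was at 0.13, 1.65 and 0.72 (departure −1.05 ± 0.13, edgeR adjusted p = 0.000101) and HIST1H1C at 0.00, 0.92 and −0.32 (departure −1.24 ± 0.19, edgeR adjusted p = 0.00274). The change of HIST1H1C with both drugs passed with the replicate block (−0.32, edgeR adjusted p = 0.00346) and not without it (0.0698). Both histone genes were lower with both drugs than with paclitaxel, by 0.92 and 1.24 on the log2 scale (edgeR adjusted p = 3.86e-08 and 8.39e-07). Of 22 FOXO and insulin genes 4 departed downwards, but 0 did without afatinib replicates 2 or 3 or paclitaxel replicate 4 or without the set term, and 6 did without combination replicate 4. FBXO32, at −0.43, lost the call without afatinib replicates 2 to 4, combination replicates 2 or 3, DMSO replicate 1, or paclitaxel replicates 1 or 4. BDNF, with single-drug changes of −0.19 and −0.06, departed by −0.63 ± 0.11 (edgeR adjusted p = 0.00316).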

How the data were processed

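RNA-seq counts per gene were analysed for 16 MDA-MB-231 libraries. Reads were aligned with STAR 2.7.5b to hg38 and counted with featureCounts of Subread 2.0.1, per the submitters' processing notes, which do not give strand or annotation settings in the sources used here, so overlapping genes on opposite strands cannot be told apart. The authors deposited a table of raw counts for 37864 genes, and a log2 table that equals log2 CPM (TMM scaling, prior count 2) minus a linear term in RNA concentration. Genes without a symbol held 0.036 to 0.0462% of the counts of a library.

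The counts were tested with edgeR 4.0.16 (R 4.3.3): TMM scaling, the default filter (minimum count 10, minimum total 15), a robust quasi-likelihood fit of all 16 libraries with group and concentration set (replicates 1 and 2 against 3 and 4), and Benjamini-Hochberg adjustment over 17991 genes at 0.05. The SE was taken as the absolute log2 fold change over √F. CPM values per library use the TMM-scaled totals. On simulated data with 17790 genes, 100 genes were changed by 0.5 and 100 by 1 on the log2 scale, leaving out genes at low levels. Counts were drawn independently from the fitted model, with no RNA concentration effect tied to treatment. For the combination against DMSO this test recovered 89% and 100% of them, with 10 false calls (5.03% of the calls). The real data have far more called genes and a concentration difference between the groups, so these values are not error rates of the results. Alternatives used DESeq2 1.42.0, limma 3.58.1 on the authors' log2 table, other scalings, filters, covariates and leave-outs. Figures and exact tests used Python 3.11.15, scipy 1.17.1 and matplotlib 3.10.9.

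Named genes are the 15 called genes of largest change in each direction whose log2 CPM averaged 3 or more, the 5 such genes from 0 to under 3 (in either case with 1 sign in both sets), up to 4 members per gene list with the smallest p, a short list with EGFR and E2F1, and the 4 called genes of largest departure in each direction. Not all of them are described, and some are not reported here. The comparison, its 44 gene lists and 5 marker lists were chosen with earlier results of these data known. Of 905 symbols in the lists 17 matched no gene and were not analysed here. Lists are described by counts and medians, with no set test. Some genes stand in more than a single list, such as VEGFA and TGFB2, so the counts of different lists are not independent.

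Deviations from group means correlated by 0.58, 0.59, 0.44 and 0.70 between same-numbered combination and DMSO libraries. Differently numbered libraries of the same set correlated by 0.49, 0.54, 0.56 and 0.46, so these values mostly follow the set. Within the sets the same-number correlations were only 0.11 and 0.20, where each set gives a single value. Whether replicate numbers pair the libraries was therefore not settled, and the replicate block is given as an alternative. No pair of libraries of a group agreed within sampling noise.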

Additional observations from a re-analysis of the deposited data

Results flagged for a closer look

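In 9 of 278 groups of 4 libraries, 1 group and 1 gene at a time, 1 library stood apart from the other 3, where the gap to its neighbour divided by the whole range was above Dixon's critical value. For 4 independent values from a single normal distribution chance gives about 1 in 20 groups. These libraries come from different concentration sets, so that rate need not hold here. Among combination libraries, UNG had a ratio of 0.917 (19.8 CPM beside 16.2 to 16.5), IL1A 0.9 (3.37 CPM beside 4.18 to 4.27), HSPH1 0.879 (581 CPM beside 523 to 530), TRAF1 0.874 (52.1 CPM beside 41 to 42.4) and ANKRD1 0.846 (209 CPM beside 157 to 165). Among DMSO libraries, NUSAP1 had a ratio of 0.875 (143 CPM beside 150 to 151), BBC3 0.837 (3.66 CPM beside 4.69 to 4.89), NOG 0.836 (78.9 CPM beside 49 to 53.9) and OSGIN1 0.836 (24.5 CPM beside 18.4 to 19.4). Each of these genes was called without any 1 of the 8 libraries.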

How the results depend on the processing

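The count of 6830 genes for the combination against DMSO was 2310 without the set term, 4103 with log2 RNA concentration added, 3181 in replicates 3 and 4 only and 471 with 1.5-fold as the null. It lay between 5967 and 6540 when 1 library was left out. With the replicate number as a block, which treats same-numbered libraries as matched, it was 7681. The block moved the other counts by under 1.5 times except that of departures. Against afatinib the counts were 1143 without the set term, 2528 in replicates 1 and 2 only, 2019 in replicates 3 and 4 only, and 4027 to 4611 leaving out 1 library. Against paclitaxel they were 768, 1974 and 1298 in that order, and 3324 to 4245. Departures numbered 479 without the filter on low counts, 501 with the replicate block, 367 in DESeq2, 83 on the authors' concentration-corrected table (66.3% above the sum, against 44%), 0 without the set term, 3 in replicates 1 and 2 only, 4 in replicates 3 and 4 only, and 34 to 279 leaving out 1 library. The difference in mitochondrial share, 2.43 percentage points, was 0.754 in replicates 1 and 2 and 4.11 in replicates 3 and 4, and 1.23 to 3.41 leaving out 1 library. Leaving mitochondrial genes out before scaling, an alternative chosen after seeing the data, gave 6800 genes against DMSO. The causes were not tested.

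Of 138 named genes 134 were called, and 2733 of 2890 pairs of gene and setting kept call and direction. Of the others, 140 lost the call in the same direction, 56 of them with 1.5-fold as the null and 31 without the set term, and 3 called genes (LATS2, MMP1 and FANCM) lost it without 1 library. Signs turned for ERBB2 (0.01 with at least 1 CPM, 0.00 with only the groups compared, 0.04 in replicates 1 and 2, 0.03 and 0.06 without DMSO replicates 2 and 4, 0.05 without combination replicate 3) and ASNS (0.07 in replicates 3 and 4), and on the authors' table for MMP1 (−0.05) and FANCM (−0.00). The 8 pairs that gained a call were EGFR without combination replicate 4 (−0.22) and on the authors' table (−0.44), ERBB2 on that table (−0.25), ASNS without the filter (−0.22) and in replicates 1 and 2 (−0.49), and HIST1H1C without the filter (−0.34), with the replicate block (−0.32, edgeR adjusted p = 0.00346) and without combination replicate 1 (−0.42).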
